A study of Homo sapiens with 39 samples.

Results

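Stable derivatives of the human colorectal cancer line HCT116 were compared: one produced isoform 2 of hepatocyte nuclear factor 4 alpha (HNF4A) and the other isoform 1, each fused to GFP at its C-terminus. The comparison used 6 of the 39 RNA-seq libraries of the series, chosen by their labels: 3 of the isoform 2 line and 3 of the isoform 1 line. The 3 libraries of the parental Flp-In T-REx cells, which carry no construct, served only as a reference level. All 9 libraries came from cells given doxycycline at 2.5 µg/ml for 48 h in DMEM with serum, the drug that switches the construct on, and the parental cells received it too. Beforehand the parental cells were kept in blasticidin and zeocin and both lines in blasticidin and hygromycin B, per the labels. Each isoform is represented by 1 line with a single genomic insertion of its construct, and whether a line is a clone or a pool is not stated. No line makes GFP alone, so the isoform and the line that carries it cannot be told apart. Nothing says that the 3 libraries of a line came from separate cultures, so p-values measure only the spread between these samples.

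HNF4A is a nuclear receptor that binds DNA as a homodimer and maintains epithelial and metabolic gene programmes in liver, kidney, pancreas and gut. Its gene has 2 promoters, P1 and P2, which give different N-termini, and alternative splicing gives different C-termini. Isoforms 1 and 2 are both P1 forms with the same DNA-binding and ligand-binding domains. By the standard nomenclature isoform 2 has 10 extra residues in the C-terminal F domain, a region known to modulate contacts with coregulators. The labels give only the isoform numbers, and the comparison asks which transcripts differ between cells with and without this insertion.

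The insertion is given here as it stands in the reference transcripts, because it is the only coding difference between the 2 forms. In GENCODE 29 (GRCh38) the forms use alternative ends of exon 9 of HNF4A, which runs from 44428335 to 44428487 of chromosome 20 in the longer form and to 44428457 in the shorter. The longer form adds 30 bases, chr20:44428458-44428487 on the plus strand, a net gain of 10 codons. The added bases enter codon 418 after its first base, so they split that codon and are not 10 whole codons by themselves. The rest of the coding sequence was identical, and the forms have 474 and 464 codons. The 30 added bases are in capitals and 30 bases of flanking coding sequence stand on each side. The cloned constructs themselves were not read here.
isoform 2 form: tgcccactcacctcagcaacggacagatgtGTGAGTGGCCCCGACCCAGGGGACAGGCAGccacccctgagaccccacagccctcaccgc
isoform 1 form: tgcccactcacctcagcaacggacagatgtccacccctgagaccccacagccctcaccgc

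HNF4A mRNA was far above the parental level in both lines and lower in the isoform 2 line than in the isoform 1 line. HNF4A (chr20:44355700-44434596, GRCh38) was at 806, 776 and 765 TPM in the isoform 1 libraries and at 577, 655 and 609 TPM in the isoform 2 libraries. TPM is a length-corrected transcript abundance scaled to a fixed total in each library. The parental cells had 31.9, 30.8 and 31.7 TPM. The lines did not overlap, at 782 ± 21.1 against 614 ± 39.2 TPM (SD, n = 3 each), so the isoform 2 line had 78.4% of the isoform 1 level. The two-sided exact permutation test gave p = 0.1, the smallest that 3 against 3 libraries allow. These values are sums over 12 rows that the authors quantified separately, and reads of the endogenous gene and of the construct were not separated. Every difference between the lines below stands beside this difference in dose, whose part in them was not tested.

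The 6 libraries had between 28139 and 29098 genes above 0 TPM, and read depth is unknown from TPM. On the log2(TPM + 1) scale the Pearson correlation across genes was at least 0.9905 between libraries of a line and between 0.9857 and 0.99 across the lines. Of 12 markers of epithelial identity, 10 averaged 1 TPM or more in the 6 libraries, from the gut factor CDX2 (9.36 and 9.26 TPM in the isoform 1 and isoform 2 lines) to the keratin KRT8 (2400 and 1800 TPM). The gut epithelial markers KRT20 and CEACAM5 stayed under 1 TPM. Of 20 markers of other cell types, 14 had a mean under 1 TPM in the 6 libraries. The blood cell marker PTPRC and the T cell marker CD3E did not exceed 0.102 and 0.0471 TPM in any of the 9 libraries. Other markers of the list were higher. Over the 9 libraries the immune marker CD68 ranged from 3.1 to 34.7 TPM, the stromal COL1A1 from 9.88 to 13.8 TPM and the endothelial PECAM1 from 2.1 to 6.43 TPM. The summed level of the 20 markers was 92.2 to 100 TPM in the isoform 1 line, 81.2 to 86.9 TPM in the isoform 2 line and 58.5 to 68.4 TPM in the parental cells. HBB, the beta globin, was the only marker of this list to pass, at 38.2 against 28.9 TPM.

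Most genes differed little between the lines, and the few large differences were mostly losses in the isoform 2 line. Of 14815 genes that averaged 1 TPM or more across the 6 libraries, 1727 (11.7%) passed at an adjusted p under 0.05 (limma with Benjamini-Hochberg adjustment). They comprised 998 higher (6.74%) and 729 lower (4.92%) in the isoform 2 line, and the median difference over all genes was 0.018. Most were small: 1375 of the 1727 differed by less than 0.5 on the log2(TPM + 1) scale, which understates changes of low genes. Only 66 (0.445%) passed with at least a 2-fold difference on that scale, 27 higher and 39 lower. In all 66 the 3 libraries of one line lay clear of the 3 of the other. The 66 were selected in these same libraries, so this separation largely follows from the selection and adds no support. Of these 66, 13 were rows of short RNAs or tRNAs (10 higher, 3 lower), which poly(A)-selected libraries capture unevenly. The total was sensitive to which libraries entered. Without isoform 1 replicate 1, 2 or 3 the higher counts were 495, 799 and 445 and the lower counts 401, 568 and 376. Without isoform 2 replicate 1, 2 or 3 they were 428, 331 and 496 higher and 355, 397 and 343 lower, so that without isoform 2 replicate 2 more genes were lower than higher. The 2-fold counts moved less, to 22 to 37 higher and 34 to 38 lower.

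**Figure D1:**
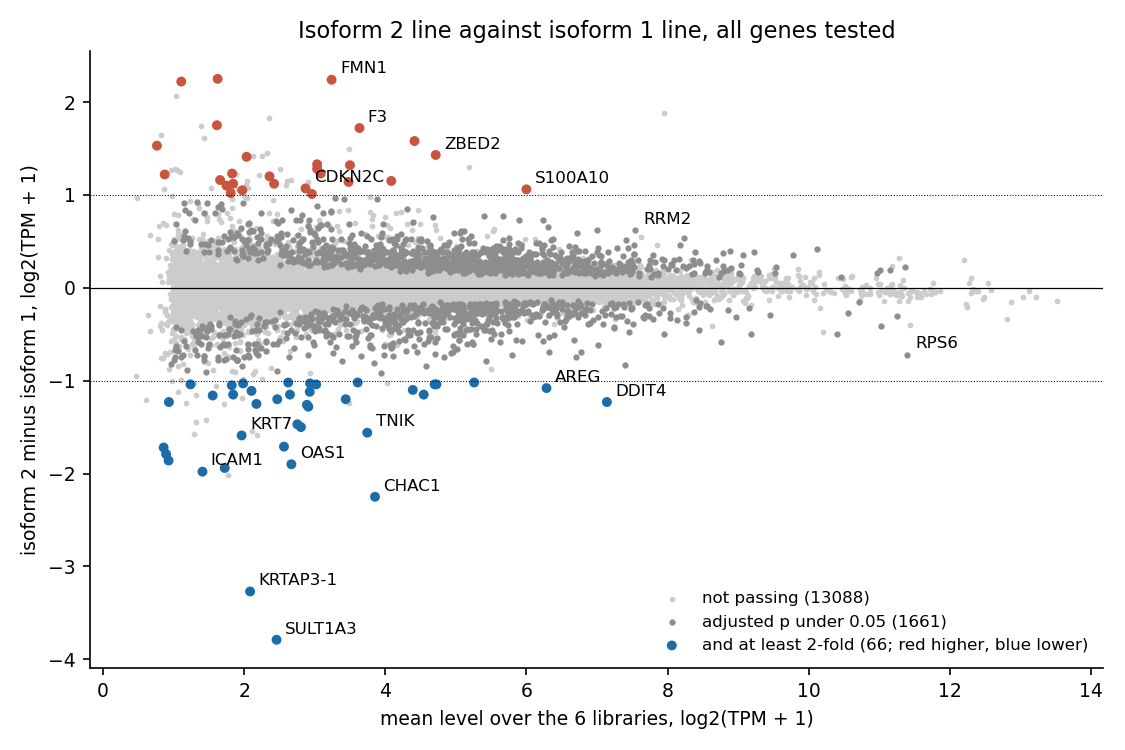
Difference of isoform 2 minus isoform 1 (vertical, log2(TPM + 1)) against the mean level over the 6 libraries (horizontal, log2(TPM + 1)); each point is 1 of 14815 genes, and dotted lines mark a 2-fold difference. Most of the 1727 passing genes lie close to 0, and the 66 coloured genes (27 red, higher; 39 blue, lower) extend further downward than upward.

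The parental cells were set beside both lines as a reference level. For 555 of the 998 genes higher in isoform 2 (55.6%) the parental mean was higher still, close to the 59.5% among all tested genes above 0. For 368 of the 729 genes lower in isoform 2 (50.5%) it was lower still, against 40.2% among all tested genes below 0. The isoform 1 line lay in the middle for 209 higher and 198 lower genes. The parental level lay between the lines for 234 and 163. Of the 27 genes with a 2-fold increase, the parental mean lay between the lines for 15, below both for 11 and above both for 1. Of the 39 with a 2-fold decrease it lay between the lines for 15, above both for 12 and below both for 12.

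FMN1, F3 and S100A10 were among the largest increases. FMN1, a formin that nucleates actin filaments (chr15:32765545-33194733), was at 2.88, 3.68 and 3.48 TPM in isoform 1 libraries and at 18.5, 20.3 and 19.7 TPM in isoform 2 libraries. The parental cells had 1.09 to 1.36 TPM, below both lines, and FMN1 was 2.24 ± 0.0839 higher in isoform 2 on the log2(TPM + 1) scale (SE; limma adjusted p = 6.63e-05). F3, tissue factor, the cell-surface starter of blood clotting (chr1:94529225-94541800), was at 5.47, 5.89 and 6.16 TPM against 22.1, 21.1 and 21.5 TPM. Parental F3 was 4.1 to 5.73 TPM, so only the isoform 2 libraries stood high, by 1.72 ± 0.0578 (log2(TPM + 1), SE; limma adjusted p = 6.63e-05). S100A10, the partner of annexin A2 at the plasma membrane (chr1:151982915-151994390), was at 43.3, 41.8 and 44.7 TPM against 93.3, 92.6 and 87.8 TPM. It stood at 14 TPM in the parental cells, so both lines were above it and the isoform 2 line was the higher by 1.06 ± 0.0423 (log2(TPM + 1), SE; limma adjusted p = 7.96e-05).

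ZBED2, a zinc finger transcription factor (chr3:111592900-111595443), was at 14.1, 14.7 and 16.3 TPM in isoform 1 and at 39.2, 40.6 and 47 TPM in isoform 2. The parental range, 9.42 to 14.2 TPM, reached the isoform 1 values but not those of isoform 2, which were 1.43 ± 0.0805 higher (log2(TPM + 1), SE; limma adjusted p = 0.000479). CDKN2C, an inhibitor of the cyclin D kinases (chr1:50960745-50974633), was at 4.26, 4.44 and 3.5 TPM against 8.76, 10.4 and 9.63 TPM. Its parental values of 7.43 to 7.88 TPM lay between the lines, nearer to isoform 2, and the difference was 1.07 (limma adjusted p = 0.00227). ARL14EPL was at 9.14, 9.58 and 16.6 TPM against 29.4, 38.5 and 40.7 TPM, a difference of 1.58 (limma adjusted p = 0.0076), and the long noncoding RNA LOC101927915 differed by 1.14. The other 5 of the 12 largest increases among genes averaging at least 5 TPM were rows of short RNAs, the U6 copy RNU6-589P (1.33) and the mitochondrial tRNAs TRNF (1.32), TRNS2 (1.28), TRNV (1.23) and TRNG (1.15). Below that level lay larger increases of other short RNAs, among them RNU6-737P (2.25), SNORA2A (2.22) and SNORD73B (1.75). Of 21 mitochondrial tRNA rows tested, these 4 passed, all higher, while none of 13 mitochondrial mRNAs and neither of 2 mitochondrial rRNAs did. The median differences of these rows were 0.47 for tRNAs, -0.15 for mRNAs and 0.31 for rRNAs.

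Among the losses, KRTAP3-1, ICAM1 and TNIK fell below their parental level. KRTAP3-1, a keratin-associated protein gene (chr17:41008521-41019324), was at 11, 15 and 11 TPM in isoform 1 and at 0.476, 0.23 and 0.402 TPM in isoform 2. The parental cells had 9.9 to 11.1 TPM, so the isoform 2 libraries stood apart from both other groups, and KRTAP3-1 fell by 3.27 on the log2(TPM + 1) scale (limma adjusted p = 8.42e-05). ICAM1, an adhesion receptor for leukocyte integrins (chr19:10270835-10286615), showed the same arrangement, with 4.46, 3.96 and 4.45 TPM in isoform 1, 0.377, 0.302 and 0.342 TPM in isoform 2 and 5.8 to 6.68 TPM in the parental cells. It fell by 1.98 on the log2(TPM + 1) scale (limma adjusted p = 0.000154). TNIK, a kinase that acts with TCF4 in Wnt signalling (chr3:171061339-171460408), was at 22.2, 22.8 and 21 TPM against 6.76, 7.18 and 6.51 TPM. With 20.7 to 22 TPM in the parental cells, isoform 1 and parental libraries overlapped, and TNIK fell by 1.56 in isoform 2 (limma adjusted p = 6.63e-05).

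OAS1, an antiviral sensor of double-stranded RNA (chr12:112906777-112933222), was at 11.9, 11 and 11.1 TPM in isoform 1 and at 2.64, 2.68 and 1.69 TPM in isoform 2. The parental 3.65 to 4.24 TPM lay between the lines, closer to isoform 2, and OAS1 fell by 1.90 on the log2(TPM + 1) scale (limma adjusted p = 0.000959). CHAC1, an enzyme that degrades glutathione and a target of the stress factor ATF4 (chr15:40952962-40956519), was at 42.5, 13.8 and 48 TPM against 5.1, 6.04 and 5.87 TPM. Isoform 2 was near the parental 4.22 to 5.16 TPM, and within isoform 1 replicate 2 was far below the other libraries. CHAC1 fell by 2.25 (limma adjusted p = 0.0168), and its adjusted p was 0.0561 without isoform 1 replicate 1 and 0.0559, 0.0552 and 0.051 without isoform 2 replicates 1, 2 and 3.

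The other large losses were genes of varied roles. CLMP, a cell adhesion molecule, was at 9.78, 11.3 and 11.3 TPM against 3.48, 3.45 and 2.58 TPM, and ADGRF1, an adhesion G protein-coupled receptor, at 10.6, 11.1 and 9.1 TPM against 4.18, 3.02 and 2.19 TPM. For both the parental cells were higher than either line, at 13.5 to 15.5 TPM for CLMP and 31.2 to 34.4 TPM for ADGRF1. The neighbouring keratin genes KRT7 (chr12:52232520-52252186) and KRT80 (chr12:52168996-52192000) fell by 1.59 and 1.28, and KRT7 went from 5.48, 6.34 and 5.57 TPM to 1.07, 1.49 and 1.21 TPM. CTGF, a matricellular growth factor and a known YAP target, was at 11.6, 8.81 and 11.2 TPM against 4.07, 3.64 and 3.67 TPM, with the parental 5.37 to 7.42 TPM in between. ARHGDIB fell by 1.20. IGF2BP3, an mRNA-binding protein of fetal tissues and tumours, was at 9.1, 11 and 10.7 TPM against 4.23, 4.42 and 3.82 TPM, while the parental cells had only 1.49 to 1.75 TPM. VIPR1-AS1 (-1.71) overlaps a gene on the other strand. SULT1A3, the largest loss by value (-3.79), has a near-identical copy and ranged from 5.26 to 72.5 TPM within isoform 1, so its value is uncertain.

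**Figure D2:**
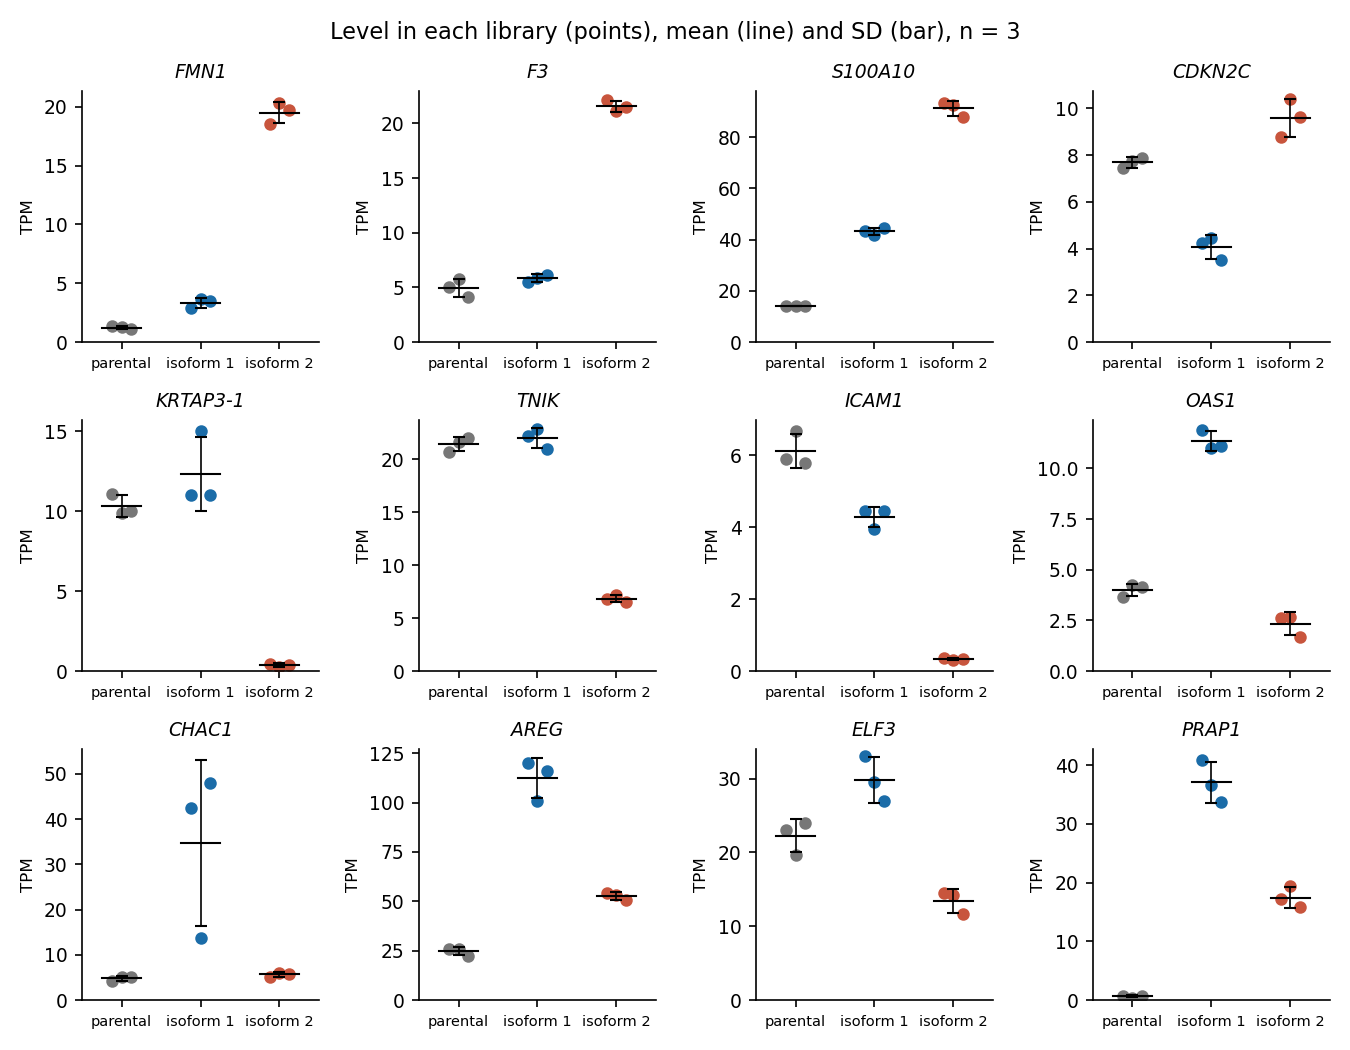
TPM of 12 genes (1 panel each) in the parental, isoform 1 and isoform 2 libraries; points are libraries, lines the mean and bars the SD (n = 3), on axes that start at 0. The 3 isoform 2 libraries lie clear of the 3 isoform 1 libraries in every panel, and CHAC1 shows the low isoform 1 replicate 2 (13.8 TPM). The genes were picked for differing in these same libraries, so the separation largely follows from that choice.

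Genes of DNA replication and of mitosis were higher together in the isoform 2 line, by small amounts. Of 34 S phase genes tested, 25 rose (73.5%, against 6.74% of all genes) and none fell. The median difference was 0.29 over the 34, where the median of all genes tested was 0.02. RRM2, a subunit of the reductase that makes deoxynucleotides, was at 140, 172 and 138 TPM in isoform 1 and at 241, 246 and 203 TPM in isoform 2. The lines did not overlap, and the parental 214 to 242 TPM matched the isoform 2 range. Other members that rose were CCNE2 (0.52), the cyclin of S phase entry, GINS2 (0.48) of the replicative helicase and TYMS (0.46), which makes thymidylate. GINS2 was at 56, 61.8 and 58.1 TPM, then 86.1, 81.9 and 79.3 TPM, and 103 to 112 TPM in the parental cells. Of the 34 genes, 32 were higher in the parental cells than in either line, against 59.5% of all tested genes above 0. The median level of the list was 5.71 to 5.82 in the isoform 1 libraries, 5.98 to 6.18 in the isoform 2 libraries and 6.59 to 6.70 in the parental libraries (log2(TPM + 1)).

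Of 34 mitosis genes tested, 19 rose (55.9%, against 6.74% of all genes) and none fell. The median was again 0.29, and all 34 lay above 0. CDC25B, the phosphatase that starts mitosis, rose by 0.46, and MAD2L1 (0.43) and NUF2 (0.43), parts of the spindle checkpoint and the kinetochore, by nearly as much. FOXM1, the transcription factor of the mitotic programme, was at 42.9, 48.7 and 39.6 TPM in isoform 1, at 59.4, 62 and 53.8 TPM in isoform 2 and at 81.3 to 83.9 TPM in the parental cells. Here the isoform 1 and isoform 2 medians came closer than for S phase, with 5.96 in isoform 1 replicate 2 against 6.04 in isoform 2 replicate 3. Replicate 2 was the highest of each group. In replicate order the medians were 5.74, 5.96 and 5.75 in isoform 1, 6.06, 6.19 and 6.04 in isoform 2, and 6.42, 6.57 and 6.47 in the parental cells. The medians of both lists kept their sign without any of the 6 libraries, at 0.25 to 0.34 for S phase and 0.24 to 0.34 for mitosis. The counts did not hold as well. Without isoform 1 replicates 1 or 3 the S phase count was 13 and 11, and without isoform 2 replicates 1 or 2 it was 11 and 11. The mitosis count was 4 and 4 without isoform 1 replicates 1 or 3, and 3 and 3 without isoform 2 replicates 1 or 2.

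Epithelial genes moved the other way. Of 25 genes of claudins and other junctions, 13 fell (52%, against 4.92% of all genes) and none rose, with a median of -0.19. CDH1, E-cadherin of the adherens junction, was at 60, 53.6 and 61 TPM in isoform 1 and at 37.3, 41.7 and 43.5 TPM in isoform 2, with 29.2 to 33.1 TPM in the parental cells. All isoform 2 libraries were thus between the other groups, and CDH1 fell by 0.50 on the log2(TPM + 1) scale (limma adjusted p = 0.00837). CLDN3 (-0.63), CLDN7 (-0.30) and CLDN4 (-0.30), claudins of the tight junction, fell, as did TJP3 (-0.47) and CGN (-0.40), scaffold proteins of that junction, and the desmosomal cadherins DSC2 (-0.39) and DSG2 (-0.18). In 18 of the 25 genes the parental mean was below both lines, against 40.2% of all tested genes below 0. The count was 7 without isoform 1 replicates 1 or 3 or isoform 2 replicate 3, and 6 without isoform 2 replicate 1.

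Of the 10 tested markers of epithelial identity, which overlap the junction list in CDH1 and the claudins, 7 fell (70%, against 4.92% of all genes). The median of the 10 was -0.35. The count was 7 without any one of the 6 libraries. ELF3, an epithelial transcription factor (chr1:202007945-202017188), was at 33, 29.5 and 26.9 TPM against 14.5, 14.3 and 11.6 TPM, and fell by 1.10 (limma adjusted p = 0.00242). The parental 19.7 to 24 TPM lay between the lines. KRT18, the keratin of simple epithelia, was at 1640, 1490 and 1690 TPM against 1110, 1090 and 1200 TPM, and here the parental 790 to 855 TPM was lowest. Matrix and mesenchymal genes were divided, with 5 of 22 rising and 5 falling (22.7% each, against 6.74% and 4.92% of all genes). PLAU (0.40), the urokinase, SNAI2 (0.46) and the intermediate filament VIM (0.59) rose, while THBS1 (-0.67), LAMA3 (-0.40) and ITGA3 (-0.27) fell.

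The EGF family ligands AREG (chr4:74445134-74455009) and EREG (chr4:74365143-74388751), neighbours that both activate the EGF receptor, were lower in the isoform 2 line. AREG was at 120, 101 and 116 TPM in isoform 1 and at 54.2, 53.3 and 50.5 TPM in isoform 2, and EREG at 32.6, 36.2 and 32.4 TPM against 14.7, 16.2 and 13.2 TPM. Neither overlapped, and both stayed above the parental 22.6 to 26.1 TPM for AREG and 6.51 to 7.08 TPM for EREG. The differences were -1.08 ± 0.0665 and -1.15 ± 0.0802 (log2(TPM + 1), SE; limma adjusted p = 0.000747 and 0.000959). NRG1, a ligand of the other ERBB receptors, rose by 0.61, from 25.4, 29.2 and 24.8 TPM to 41, 39.5 and 41.8 TPM. Of 19 genes of ligands, receptors and feedback inhibitors, 7 fell (36.8%, against 4.92% of all genes) and 1 rose (5.26%). The median was -0.20. The feedback inhibitors SPRY4 (-0.47), ERRFI1 (-0.43), DUSP6 (-0.26) and DUSP5 (-0.22) and the receptor ERBB2 (-0.25) made up the rest of the losses. The count was 4 without isoform 1 replicates 1 or 3 or isoform 2 replicate 3, and 3 without isoform 2 replicate 1.

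ATF4 and its targets are genes that cells raise when amino acids run short or the endoplasmic reticulum is stressed. Of 26 tested, 9 were lower in the isoform 2 line (34.6%, against 4.92% of all genes), and none rose. The losses were CHAC1, DDIT4, ATF3, STC2, SESN2, ATF4 itself (530 to 351 TPM, -0.58), CEBPB (-0.56) and the amino acid transporter pair SLC7A5 (-0.50) and SLC3A2 (-0.31). DDIT4, an inhibitor of mTORC1, was at 208, 201 and 238 TPM against 71.9, 105 and 99.7 TPM, and fell by 1.23. ATF3, a stress transcription factor, was at 61.7, 41.4 and 59.9 TPM against 27.8, 25.9 and 24 TPM, and fell by 1.02. STC2, a secreted glycoprotein, was at 26, 18.4 and 28.6 TPM against 14.5, 14.8 and 14.5 TPM. In CHAC1, ATF3 and STC2 isoform 1 replicate 2 was the lowest of its line. Passing or not, 23 of the 26 lay below 0, with a median difference of -0.32. The median level of the list nevertheless overlapped between the lines, at 6.59, 6.35 and 6.65 in isoform 1 and 6.31, 6.55 and 6.53 in isoform 2 (log2(TPM + 1)). The count of 9 passing lower depended on every library: it was 17 without isoform 1 replicate 2. It was 2 and 5 without isoform 1 replicates 1 and 3, and 3, 2 and 2 without isoform 2 replicates 1, 2 and 3.

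Known targets of HNF4A that passed were lower in the isoform 2 line. Of 21 liver and gut targets only 8 reached the level needed for a test, all 8 lay below 0, and 3 fell (37.5%, against 4.92% of all genes). VIL1, the villin of the brush border, was at 44.2, 38.2 and 45.6 TPM in isoform 1, at 30.7, 32.5 and 36.6 TPM in isoform 2 and at or below 0.683 TPM in the parental cells. Its fall of 0.35, like that of clotting factor F10 (-0.35), was small beside the gap between either line and the parental cells. APOA4, a chylomicron apolipoprotein, was at 3.85, 1.58 and 2.14 TPM against 0.829, 0.734 and 0.419 TPM. All 3 passed only narrowly, with limma adjusted p of 0.0411, 0.0473 and 0.0307, and F10 lost its call whichever of the 6 libraries was left out. Of 14 brush border genes tested of 25, 4 fell (28.6%), among them the actin regulators EPS8L3 (-0.75), EZR (-0.32) and EPS8L2 (-0.21). CIDEC, a lipid droplet protein that the parental cells lacked nearly completely (at most 0.125 TPM), was at 99.6, 86 and 87.7 TPM against 62.3, 62 and 58.2 TPM.

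The metabolic lists had medians close to 0, although some held more losses than the 4.92% of all genes. In the lipid droplet list 7 of 25 genes fell (28%) and 2 rose, with a median of -0.04, and the losses included LPIN2 (-0.58), CIDEC (-0.57) and the triglyceride lipase PNPLA2 (-0.39). In fatty acid oxidation and ketogenesis 5 of 27 fell (18.5%) and 2 rose, led by PDK4 (-0.75), a kinase that shuts off pyruvate dehydrogenase. In cholesterol synthesis FASN (-0.21), the fatty acid synthase, and DHCR7 (-0.18), which makes the last step to cholesterol, fell and no gene rose. In glycolysis 2 of 21 rose and 2 fell (9.52% each, against 6.74% and 4.92% of all genes). PFKP (-0.48) and LDHA (-0.27) were the glycolytic losses, and ENO2 (0.35) and HK1 (0.25) the gains. In xenobiotic metabolism 5 of 14 tested genes of 37 listed fell (35.7%), the largest being the carboxylesterase CES3 (-0.57).

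Immune and inflammatory lists had medians near 0 with some members lower and others higher. Of 26 interferon-stimulated genes tested of 43, 3 fell (11.5%, against 4.92% of all genes), OAS1, OAS3 (-0.79) and ISG20 (-0.47). In the same list 4 rose (15.4%, against 6.74%), IFIT5 (0.46), IFITM2 (0.35), ISG15 (0.30) and IFITM3 (0.23). In MHC class I presentation 4 of 14 fell (28.6%) and none rose, with HLA-B (-0.38), HLA-C (-0.27), HLA-F (-0.28) and the peptide-loading factor TAPBP (-0.18). In the NF-kB list ICAM1, IL32 (-0.69), LIF (-0.33) and SOD2 (-0.16) fell and TNFAIP2 (0.32) rose, among 14 tested of 32, so that here too 28.6% fell. IL32, a cytokine, was at 148, 122 and 148 TPM against 90.6, 78.5 and 87.8 TPM, with at most 0.524 TPM in the parental cells. The medians of these 3 lists were all -0.03.

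**Figure D3:**
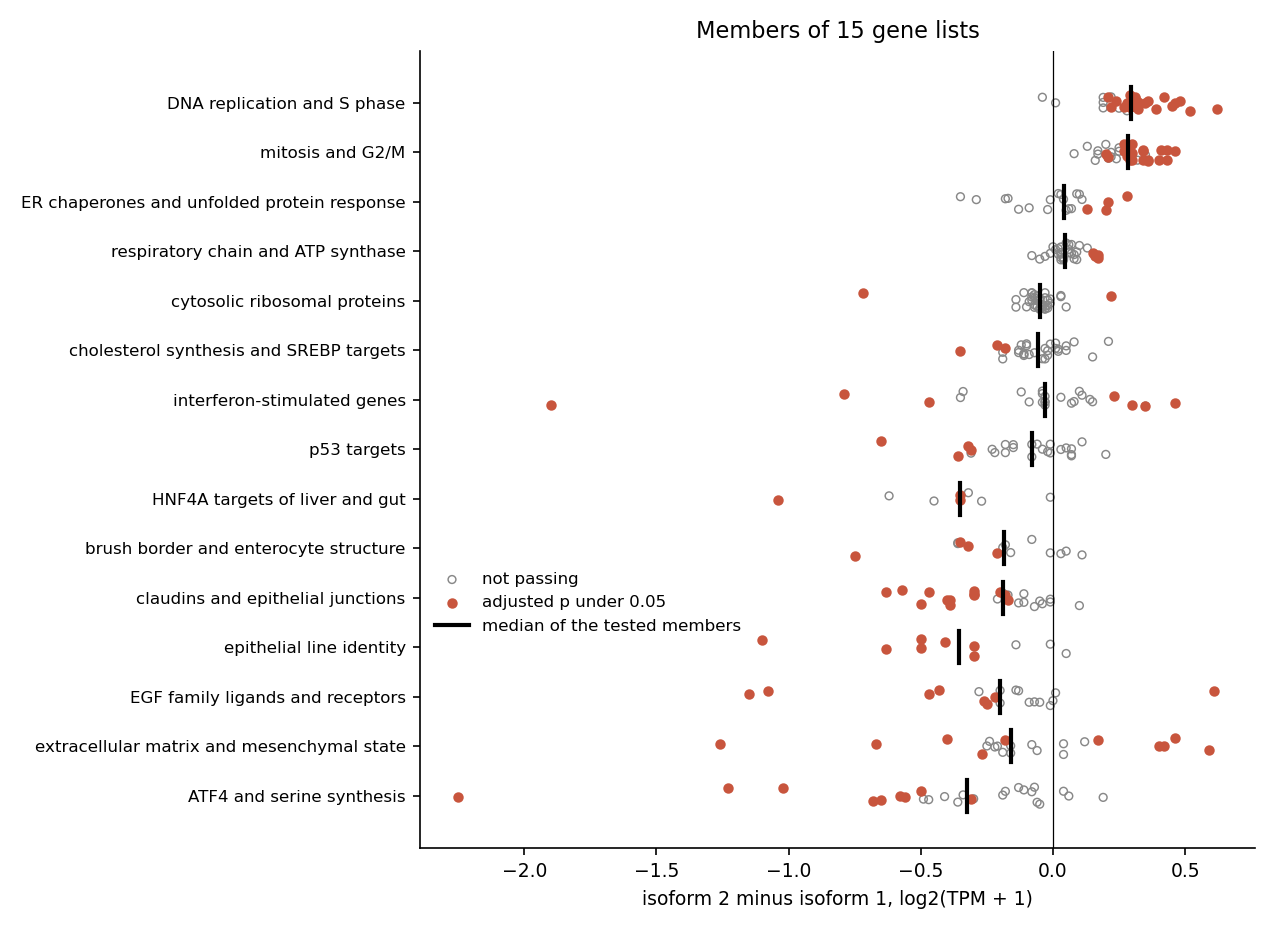
Difference of isoform 2 minus isoform 1 (horizontal, log2(TPM + 1)) for the tested members of 15 gene lists (rows); each point is a gene, filled where it passed at an adjusted p under 0.05, and the bar is the median. The S phase and mitosis medians lie at 0.29, and the HNF4A target, epithelial identity and ATF4 medians at -0.35, -0.35 and -0.32.

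The same insertion separates isoforms 8 and 7, 11 and 10, and 5 and 4, by the standard nomenclature, and these 3 pairs share no library with isoforms 2 and 1. The HNF4A means were closer in them: 734 ± 31.2 against 733 ± 35.5 TPM in isoforms 8 and 7, 614 ± 3.34 against 661 ± 45.4 TPM in 11 and 10, and 852 ± 39.8 against 856 ± 28.2 TPM in 5 and 4 (SD, n = 3 each). Passing genes were 5.74% higher and 1.72% lower of those tested in 8 minus 7, 2.9% and 5.4% in 11 minus 10, and 5.13% and 1.41% in 5 minus 4. Of the 998 genes higher in isoform 2, 978 were tested in 8 minus 7, where 210 passed in the same direction and 6 in the opposite one. In 11 minus 10, 23 of 979 passed in the same direction and 155 in the opposite one, and in 5 minus 4 it was 83 and 18 of 977. Of the 729 genes lower in isoform 2, 104 of 702 passed in the same direction and 22 in the opposite one in 8 minus 7. The numbers were 68 and 113 of 701 in 11 minus 10, and 52 and 51 of 677 in 5 minus 4.

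The difference between pairs was itself tested, as a difference of differences over the 12 libraries of 2 pairs. It passed for 558 genes against 8 minus 7 (3.75%), for 2513 against 11 minus 10 (16.9%) and for 1719 against 5 minus 4 (11.4%). The first count fell to 328 without isoform 1 replicate 3 and to 324 without isoform 2 replicate 1. Among the 66 genes with a 2-fold difference, 62 could be tested in each, and 40, 48 and 44 passed. Among all 1727 passing genes, it passed for 293 of 1710 tested (17.1%), 1057 of 1711 (61.8%) and 833 of 1703 (48.9%). Genes picked for a difference in isoform 2 minus isoform 1 differ from other pairs more often for that reason, so these counts, and those of list members that passed, only describe them. FMN1 differed by -0.10 in 8 minus 7 and fell by 1.43 in 11 minus 10, against its rise of 2.24 here, and the limma adjusted p of the contrast between pairs was 1.21e-06 and 7.62e-07. KRTAP3-1 differed by 0.48, 0.12 and 0.45 in the other pairs and OAS1 by 0.41 in 8 minus 7 and 0.93 in 11 minus 10, where isoform 2 minus isoform 1 gave -3.27 and -1.90. IGF2BP3 took either sign: it rose by 1.87 in 8 minus 7 and by 1.65 in 5 minus 4 and fell by 1.65 in 11 minus 10. ICAM1 fell by 3.33 in 5 minus 4, and AREG (-0.75) and EREG (-1.61) fell there too. Of the 2-fold increases 21 were tested in 5 minus 4, where 3 passed in the same direction and 1 in the opposite one. The 3 were ZBED2 (1.35), S100A10 (0.59) and F3 (0.40). The contrast with that pair passed for S100A10 and F3 but not for ZBED2, which fell by 0.88 in 11 minus 10.

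The gene lists were set beside the other pairs in the same way. The S phase list, with 25 of 34 higher here, had 4, 2 and 0 members passing higher in 8 minus 7, 11 minus 10 and 5 minus 4, with medians of 0.08, 0.07 and 0.01. For the 25 members that rose, the difference between pairs passed in 0, 9 and 15 cases, so the larger count here was not distinguished gene by gene from that in 8 minus 7. The mitosis list had 0, 1 and 0 members passing higher in the other pairs, and of its 19 members that rose 3, 3 and 8 differed between pairs. The epithelial identity list had 3 members lower and none higher in 8 minus 7 (median -0.19) and 2 lower and none higher in 5 minus 4 (median -0.07). In 11 minus 10, 7 of its 10 genes rose and none fell, with a median of 0.27. Of the 7 members that fell here, 4, 7 and 5 differed from 8 minus 7, 11 minus 10 and 5 minus 4. CDH1 rose by 0.57 and KRT18 by 0.59 in 11 minus 10, with limma adjusted p of 3.9e-05 and 6.84e-06 for the contrast with isoform 2 minus isoform 1. Of the 9 ATF4 targets that fell here, 4 differed from all 3 other pairs (ATF3, ATF4, CHAC1 and DDIT4), and in 8 minus 7 the list had 7 members higher and none lower.

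Of the 1727 passing genes 9 passed in the same direction in 8 minus 7 and 11 minus 10 too, 1 higher and 8 lower. How many of all genes tested passed the same way in both of those pairs was not counted. Whether 9 is many or few therefore cannot be said. Another 4 passed in the opposite direction in both other pairs. Over all genes tested, passing or not, 61.2% had the same direction here and in 8 minus 7, and 46.4% here and in 11 minus 10. Of the 9, the 6 named here, chosen by size, were all lower with the insertion. NAT2, an arylamine acetyltransferase of liver and gut, was at 21.6, 17.7 and 21.2 TPM in isoform 1 and at 10.1, 10.1 and 10.3 TPM in isoform 2, with 1.3 to 1.85 TPM in the parental cells. Its differences were -0.92 here, -0.46 in 8 minus 7, -0.43 in 11 minus 10 and -1.60 in 5 minus 4. PRAP1, a secreted protein of the small intestine, was at 40.8, 36.6 and 33.8 TPM against 17.2, 19.4 and 15.8 TPM, and at most 0.788 TPM in the parental cells. It fell by 1.04 here, by 0.43 in 8 minus 7 and by 0.27 in 11 minus 10. ABCG2, an efflux transporter, was at 21.1, 20.6 and 22.4 TPM against 12.8, 11.9 and 12.7 TPM (-0.73, then -0.38 and -0.35), but in 5 minus 4 it differed by 0.09 and did not pass, and the contrast with that pair did (limma adjusted p = 0.000952). PIPOX, the peroxisomal sarcosine oxidase, was at 9.24, 8.25 and 8.32 TPM against 4.85, 4.94 and 4.72 TPM (-0.72, then -0.46 and -0.61). The plasma selenium carrier SELENOP (-0.29, -0.48 and -0.60) and the desmosomal DSC2 (-0.39, -0.27 and -0.65) completed them, and in 5 minus 4 neither passed (-0.33 and -0.21). PRAP1 and PIPOX were under the level tested in 5 minus 4.

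**Figure D4:**
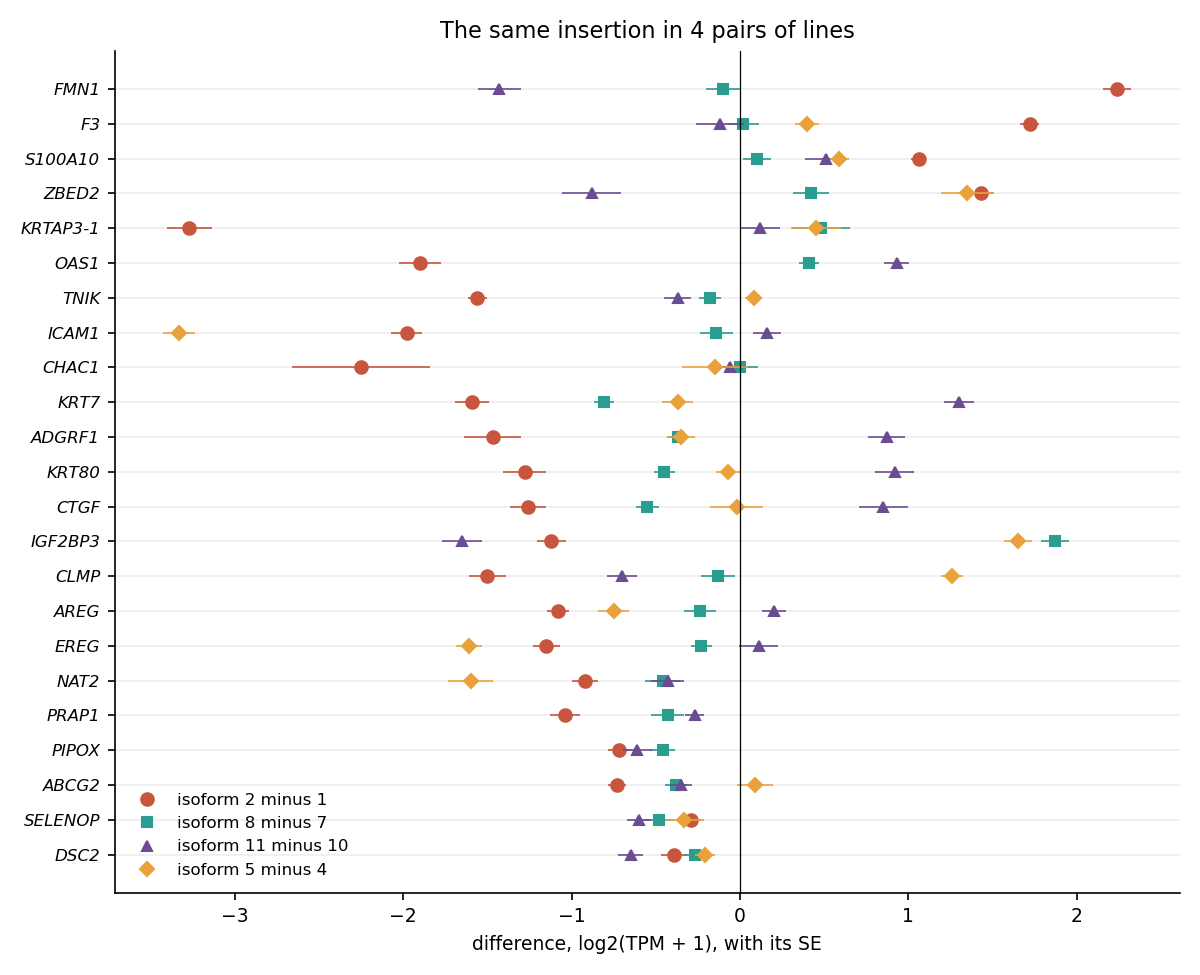
Difference with minus without the insertion (horizontal, log2(TPM + 1), bars are SE) for 23 named genes (rows) in 4 pairs of lines, isoform 2 minus 1, 8 minus 7, 11 minus 10 and 5 minus 4. FMN1 and KRTAP3-1 lie at 2.24 and -3.27 in 2 minus 1, away from their values in the other pairs, IGF2BP3 changes side between pairs, and NAT2, PRAP1, PIPOX and ABCG2 lie below 0 in 2 minus 1, 8 minus 7 and 11 minus 10.

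Promoters were searched for the HNF4 motif because several genes that fell with the insertion lie well above their parental level in both lines. The motif was taken as CAAAGTCCA, CAAAGGTCA or CAAAGTTCA on either strand of the 300-base RefSeq promoter windows (GRCh38.p14), and the 3 forms differ only at the sixth and seventh letters, so no 2 of them can match at the same place although neighbouring matches may share end bases. The 3 forms occurred in 0.38%, 0.41% and 0.3% of all promoters, and any of them in 381 of 35116 (1.08%). Among genes tested with a promoter entry 119 of 10327 (1.15%) held one. Among genes passing lower in isoform 2 it was 23 of 542 (4.24%), and among those whose parental level was lower still it was 19 of 287 (6.62%). The share among all tested genes with a parental level below both lines was not counted. Whether the motif goes with the fall or with a level above the parental cells was therefore not tested. Among genes passing higher it was 5 of 754 (0.66%), and of the 10 higher and 26 lower genes with a 2-fold difference and an entry none held it. A match is a string of letters in a window and no measure of binding. The 23 included CLRN3 (-0.81), SDCBP2 (-0.75), PIPOX (-0.72), APOBEC1 (-0.61), VTN (-0.50), NR2F1 (-0.44), CIDEB (-0.38), F10 (-0.35) and SELENOP (-0.29), and the 5 were COPS4, RPS3A, BDH1, AADAT and COMMD7.

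For 4 genes that fell, 60 bases around the match are shown in the direction of transcription, with the motif or its reverse complement in capitals, so that the form found can be seen in its setting. They lie at chr17:29043108-29043167 on the plus strand (PIPOX), chr14:24307998-24308057 on the minus strand (CIDEB), chr13:113122772-113122831 on the plus strand (F10) and chr5:42811932-42811991 on the minus strand (SELENOP).
PIPOX: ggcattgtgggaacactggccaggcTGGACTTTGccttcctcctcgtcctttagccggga
CIDEB: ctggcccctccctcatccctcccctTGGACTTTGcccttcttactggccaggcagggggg
F10: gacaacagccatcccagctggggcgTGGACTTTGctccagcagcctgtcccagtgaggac
SELENOP: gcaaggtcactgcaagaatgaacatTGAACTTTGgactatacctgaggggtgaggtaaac

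Some of the passing genes were neighbours that differed together, a pattern looked for after values had been seen and given with no test. RPS6, a ribosomal protein (chr9:19375715-19380254), was at 3450, 3410 and 3530 TPM in isoform 1 and at 2070, 2160 and 2060 TPM in isoform 2, with 3310 to 3520 TPM in the parental cells. It fell by 0.72 (limma adjusted p = 0.000233), while of 38 ribosomal protein genes tested RPS3A (0.22) was the only other one to pass. On chromosome 9, 15 tested genes in a row from RRAGA to CDKN2B had a median of -0.56, and 10 of them fell and none rose. They included MTAP, the methylthioadenosine phosphorylase (37.8 to 22.9 TPM, 49.5 TPM in the parental cells), CDKN2A, which encodes p16 and ARF (124 to 83.6 TPM), FOCAD (26.1 to 17.5 TPM) and CDKN2B, the p15 inhibitor (5.38 to 1.94 TPM), the only 2-fold gene of the stretch. PLIN2, inside the stretch, did not pass (37.5 and 36.5 TPM).

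In gene order, the median of 21 neighbouring genes was beyond 0.2 on either side over 5 runs of at least 10 genes, which held 108 of the 13334 genes with a position. These runs held 58 of the 1727 passing genes, 30 higher and 28 lower, and 1 of the 66 with a 2-fold difference. Against the parental cells the chromosome 9 run, from CCDC171 to CDKN2B, had a median of -0.75 in the isoform 2 line, and the other 11 lines lay between -0.27 and 0.03. The other 4 runs were on chromosome 4: ZNF141 to MAEA (median -0.22) and ACOX3 to FBXL5 (-0.20) on one side of 0, and GATB to AGA (0.25, with 21 of 43 genes passing higher and 2 lower) and CENPU to FRG1 (0.27) on the other. Against the parental cells the GATB to AGA run had a median of 0.25 in isoform 2, within the range of the other lines, from -0.50 (isoform 7) to 0.44 (isoforms 4 and 12), with 0.05 in isoform 1. The ZNF141 to MAEA run was at -0.51 in isoform 2, next to -0.45 in isoform 4, and up to 0.06 in the others. DNA copy number was not measured in these files and its part in these stretches was not tested. None of the S phase, mitosis, junction, EGF or ATF4 genes above lies in a run. Over 23 chromosomes the medians were between 0.00 and 0.05.

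**Figure D5:**
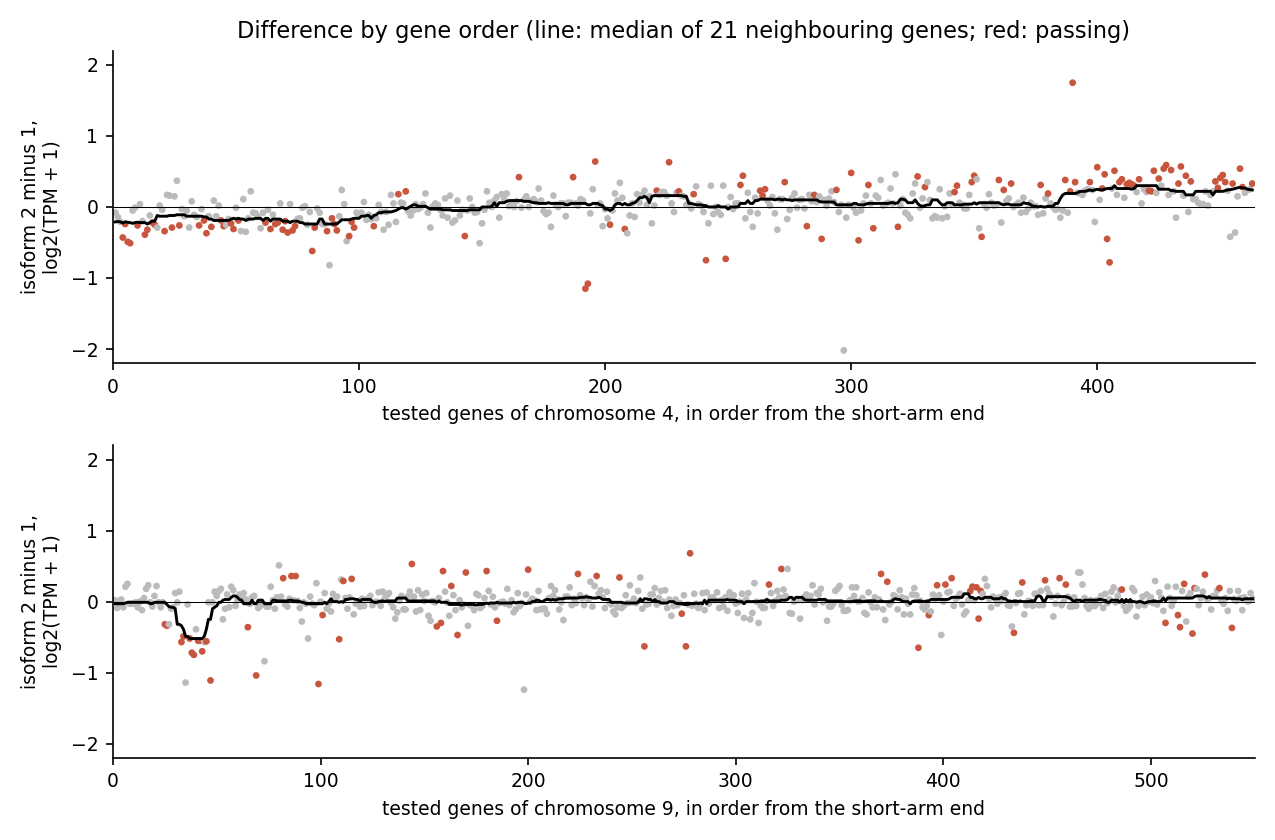
Difference of isoform 2 minus isoform 1 (vertical, log2(TPM + 1)) for tested genes of chromosomes 4 and 9 in their order along the chromosome (horizontal, rank); red points passed at an adjusted p under 0.05 and the line is the median of 21 neighbouring genes. On chromosome 9 the line dips once, where 15 genes from RRAGA to CDKN2B have a median of -0.56, and on chromosome 4 it lies below 0 near one end and above 0 near the other.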

How the data were processed

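The 6 libraries of the isoform 1 and isoform 2 lines entered every fit of that comparison. The authors deposited 1 table of 45446 rows per line with a TPM value for each library, and per the file headers also their own comparison with the parental cells. In that comparison, per the file headers, the authors gave p-values (raw and adjusted), a statistic used as a score, a log2 fold change with its error and a mean of normalised counts, here termed a signal. None of these entered a result. Per the submitters' processing notes, Trimmomatic 0.36, FastQC 0.11.5, kallisto 0.44.0, DESeq2 1.22.2 and GRCh38.p12 were used, with no role stated. RNA was poly(A)-selected and the kit kept strand, per the labels' protocols.

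Rows HNF4A1 to HNF4A12 were summed for HNF4A and left out of the fits. Linear models on log2(TPM + 1) used limma 3.58.1 in R 4.3.3 (variance trend, 4 residual degrees of freedom), for genes averaging 1 TPM or more, with Benjamini-Hochberg adjustment over all genes tested and a threshold of 0.05. A 2-fold gene also had a difference of at least 1. The other pairs were fitted alike, and differences of differences over 12 libraries. Named genes follow a rule: HNF4A, the 12 largest passing differences in each direction without overlap and with a mean of at least 5 TPM, up to 4 passing members per list by size, up to 6 genes passing in the same direction in 2 minus 1, 8 minus 7 and 11 minus 10, and up to 6 with the largest difference between pairs. Further members are named where a count needs them, and genes of the gene-order runs and of the promoter search were chosen after their values were seen. The comparison, lists and rule were chosen with earlier results of these data known. Over all genes together, deviations of libraries with equal replicate numbers were hardly correlated between the lines (0.07, 0.03 and 0.01). The main fit therefore had no replicate term. A replicate effect shared by fewer genes was not tested, and replicate 2 had the highest mitosis median in both lines and in the parental cells. Coordinates come from GENCODE 29 and promoters from RefSeq. The model was tested on simulated data. A member of the cholesterol list is not reported here. Alternatives were all 39 libraries in 1 fit, filters of 5 TPM and none, a pseudocount of 0.1, median-of-ratios scaling, no variance trend, a replicate block and leaving out each library.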

Additional observations from a re-analysis of the deposited data

Results flagged for a closer look

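The following differences of differences on the log2(TPM + 1) scale passed in limma, each being isoform 2 minus isoform 1 less the same difference in another pair of lines. Against 8 minus 7 they were 2.34 for FMN1, 4.1 for RNU6-589P, -3.75 for KRTAP3-1, -2.25 for CHAC1, -2.3 for OAS1 and -2.99 for IGF2BP3. Of these, RNU6-589P passed with all libraries (limma adjusted p = 0.0335) but lost its call whichever of the 6 libraries was left out. CHAC1 kept its call without isoform 1 replicate 2 and lost it without each of the other 5. Against 11 minus 10 they were 3.67 for FMN1, -3.39 for KRTAP3-1, -2.83 for OAS1, -2.34 for ADGRF1, -2.9 for KRT7 and -2.88 for RNU2-51P. The genes were picked among those with a 2-fold difference in isoform 2 minus isoform 1.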

How the results depend on the processing

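No gene named by the rule and no HNF4A difference changed sign under any alternative run. Genes named outside the rule were not followed under the alternatives. The balance of passing genes turned without isoform 2 replicate 2 (331 higher, 397 lower). With all 39 libraries in 1 fit 1608 genes passed higher, 16 ATF4 genes passed lower, and 851 genes differed from 8 minus 7. With no filter on low values 372 genes passed higher and 364 lower, and the passing members were 10 for S phase, 3 for mitosis, 6 for junctions, 3 for the EGF list and 2 for ATF4. The filter of 5 TPM left 14 higher and 25 lower 2-fold genes, and the pseudocount of 0.1 gave 41 and 69. Without the variance trend 11 mitosis genes passed. The share of passing genes that were higher, 57.8%, became 50.5% with no filter and 45.5% without isoform 2 replicate 2. Median-of-ratios scaling moved 2 list counts by more than 1.5 times, in cholesterol synthesis (5 lower) and lipid droplets (1 higher), and moved the median of all genes by no more than 0.02.

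Leaving out each of the 6 libraries gave 331 to 799 passing higher, 343 to 568 lower, 22 to 37 2-fold higher and 34 to 38 2-fold lower genes. It gave 11 to 23 for S phase, 3 to 25 for mitosis, 6 to 10 for junctions, 3 to 6 for the EGF list, 7 to 7 for epithelial identity and 2 to 17 for ATF4. The differences of differences ranged over 324 to 575, 1880 to 2317 and 1207 to 1676 genes against 8 minus 7, 11 minus 10 and 5 minus 4. The HNF4A difference ranged from -0.40 to -0.31. The cause was not tested beyond the fewer libraries. With a replicate block 1124 genes passed higher and 785 lower, and in separate counts 33 and 40 were 2-fold. The block also gave 29 S phase and 28 mitosis genes, 583 genes against 8 minus 7 and 3386 against 11 minus 10. Whether equal replicate numbers mark libraries handled together is not known. No filter was not run for the differences of differences, and no block was possible against 5 minus 4, whose columns carry no numbers. Unknown read depth limits what low genes can show.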

Other observations

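Some other lists held more passing genes than the 6.74% higher and 4.92% lower among all genes. Among 25 p53 targets 4 fell (16%) in the isoform 2 line and none rose: SESN2 (-0.65), GDF15 (-0.36), TP53I3 (-0.32) and the cell cycle inhibitor CDKN1A (-0.31, 342 to 276 TPM, with 104 TPM in the parental cells). SESN2 was also counted among the ATF4 losses. Its isoform 1 libraries were at 19.7, 12.1 and 19.2 TPM, with replicate 2 the lowest, as for CHAC1. Of 21 chaperones of the endoplasmic reticulum 4 rose (19%), MANF (0.28), SDF2L1 (0.21), CRELD2 (0.20) and PDIA4 (0.13). In 8 minus 7, 16 of these 21 rose and none fell, and in 11 minus 10, 10 fell and none rose. Of 32 respiratory chain genes 4 rose (12.5%), by 0.15 to 0.17. Of 10 metallothionein and zinc genes 3 fell (30%), led by the zinc transporters SLC39A5 (-0.52) and SLC30A1 (-0.34).

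Among 15 Wnt and stem cell targets MYC fell by 0.39, from 152, 158 and 154 TPM to 115, 123 and 114 TPM, with 151 to 154 TPM in the parental cells. The Wnt inhibitors NOTUM (0.59) and DKK1 (0.39) rose. Both rose in 8 minus 7 as well (0.49 and 0.43) and fell in 11 minus 10 (-0.61 and -0.51), and in 5 minus 4 NOTUM rose (0.93) and DKK1 fell (-0.25). Of 22 gut and liver transcription factors GATA6 (0.41), HNF4G (0.37) and KLF5 (0.35) rose and NR2F1 (-0.44) and NR2F2 (-0.39) fell. These made up 13.6% higher and 9.09% lower, against 6.74% and 4.92% of all genes. HNF4G, the paralogue of HNF4A, was at 2.71, 3.24 and 2.68 TPM against 3.71, 4.09 and 4.16 TPM, and lost its call without isoform 1 replicate 1 or 3 or any isoform 2 library. Of 20 nuclear receptor coregulators only NCOA3 passed (-0.34), from 17.5 to 13.6 TPM. This 5% was close to the 4.92% lower among all genes.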
